A study of Saccharomyces cerevisiae with 4 samples.

Results

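The 10 genes described here encode the enzymes of haem synthesis and of its conversion to haem A in budding yeast, Saccharomyces cerevisiae. They were chosen by name: the 8 HEM genes of the pathway (HEM1, HEM2, HEM3, HEM4, HEM12, HEM13, HEM14 and HEM15) and the haem A genes COX10 and COX15, each matched through its systematic name to 1 probe on the array. They are 10 of the 6256 genes on the array, and 9 of them were among the 5343 genes tested. HEM12 was too dim to enter the test.

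Haem synthesis starts in the mitochondrion, where Hem1 joins glycine and succinyl-CoA to 5-aminolevulinate. It continues in the cytosol through Hem2, Hem3, Hem4, Hem12 and Hem13, and ends in the mitochondrion with Hem14 and with Hem15, the ferrochelatase that inserts iron. Cox10 then adds a farnesyl group, which comes from the mevalonate pathway, and Cox15 oxidises the product to haem A, the haem of cytochrome c oxidase. Yeast needs that oxidase to respire glycerol, while it can ferment glucose.

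The study set an ERG12 DAmP mutant, whose allele lowers the amount of a transcript by disturbing its 3′ end, beside its parental strain BY4741. ERG12 encodes mevalonate kinase, whose activity in the mutant was 10% of parental, per the labels. The series asks how this deficiency alters transcript levels on the 2 carbon sources. The 4 conditions were mutant cells on glycerol, mutant cells on glucose, parental cells on glycerol and parental cells on glucose, each sugar or glycerol at 20 g/L in synthetic YNB medium after growth on glucose. The mutant is given as 1 strain, and the labels name no other allele that it carries. As background, BY4741 is an auxotrophic haploid of mating type a, and its S288C ancestry carries a transposon insertion in HAP1, which encodes a haem-responsive activator. The labels differ on the last step before RNA was taken. An incubation of 1 h after the change of medium, a further culture between optical densities of 0.1 and 0.5, and 1 h in rich medium at pH 2.5 are each given in a different field. Effects of growth stage or acid therefore cannot be told apart from those of strain and carbon source.

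Each of 4 pairs of conditions was hybridised on 2 arrays, from biological duplicates: mutant glycerol over mutant glucose, parental glycerol over parental glucose, mutant glycerol over parental glycerol, and mutant glucose over parental glucose. Whether any of the 8 arrays shared an RNA extract is not stated. The condition named before "over" was always in the Cy5 channel, so no pair had a dye swap and a gene's dye bias is part of its ratio. All 8 arrays lay on 1 slide with each pair in its own slide column, so column and pair cannot be told apart. From 4917 to 5499 genes were well above background in a channel, and replicate arrays correlated across genes at 0.898 for mutant glycerol over mutant glucose, 0.953 for parental glycerol over parental glucose, 0.511 for the strains in glycerol and 0.716 for the strains in glucose. ERG12 cleared background in 1 of 8 mutant channels and 5 of 8 parental channels, so its probe gives no ratio in the test. URA3, which BY4741 lacks, did so in 8 of 8 mutant channels and 3 of 8 parental channels, with 0 of 4 on the parental-only arrays. Its mutant over parental log2 ratio was 5.29 in glycerol and 5.55 in glucose. Effects of this difference in URA3 and of the ERG12 allele therefore cannot be told apart in the strain comparisons. MET17, which BY4741 also lacks, was well above background in 16 of 16 channels, and where its probe lies relative to that deletion was not analysed here. The mutant over parental log2 ratio of MET17 was 1.255 in glycerol and -0.05 in glucose. LEU2 and HIS3 were below that mark in every channel.

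A value below is a log2 ratio of Cy5 over Cy3, averaged over the 2 spots of a gene on an array after loess normalization, unless a level is named. The glycerol response of a strain is its ratio of glycerol over glucose. Means carry the standard error (SE) of limma's moderated fit, which pools the spread of a gene over all 8 arrays. A called gene is one with an adjusted p (Benjamini-Hochberg over the 5343 genes tested) under 0.05. Loess holds the average gene near zero on each array. Centring on the spike-in RNA instead moved the median of all genes to -1.48 in the mutant and -2.19 in the parental glycerol response. That shift may hold an offset of dye or spike-in mix, as described with the scalings. Equal masses of RNA were labelled (100 ng), so a ratio compares shares of the RNA, and a different makeup of the culture and a different amount of RNA per cell cannot be told apart.

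In glycerol, the transcript of the last enzyme of haem synthesis, HEM15, rose relative to the average gene in both strains, and that of HEM13 fell in both. The mutant had these 2 calls among 9 members tested, 1 higher and 1 lower. The parental strain had 5 calls, with HEM1, HEM2, HEM15 and COX10 higher and HEM13 lower. These counts stand against a background in which much of the genome was called. In the mutant response 46.6% of all tested genes were called, 24.7% higher and 21.9% lower. In the parental response 62% were called, 31.4% higher and 30.5% lower. The share of members called was therefore below the background in the mutant response and near it in the parental response. The members' median was -0.03 in the mutant response and 0.37 in the parental response, where all tested genes had medians of 0.02 and -0.01.

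**Figure D1:**
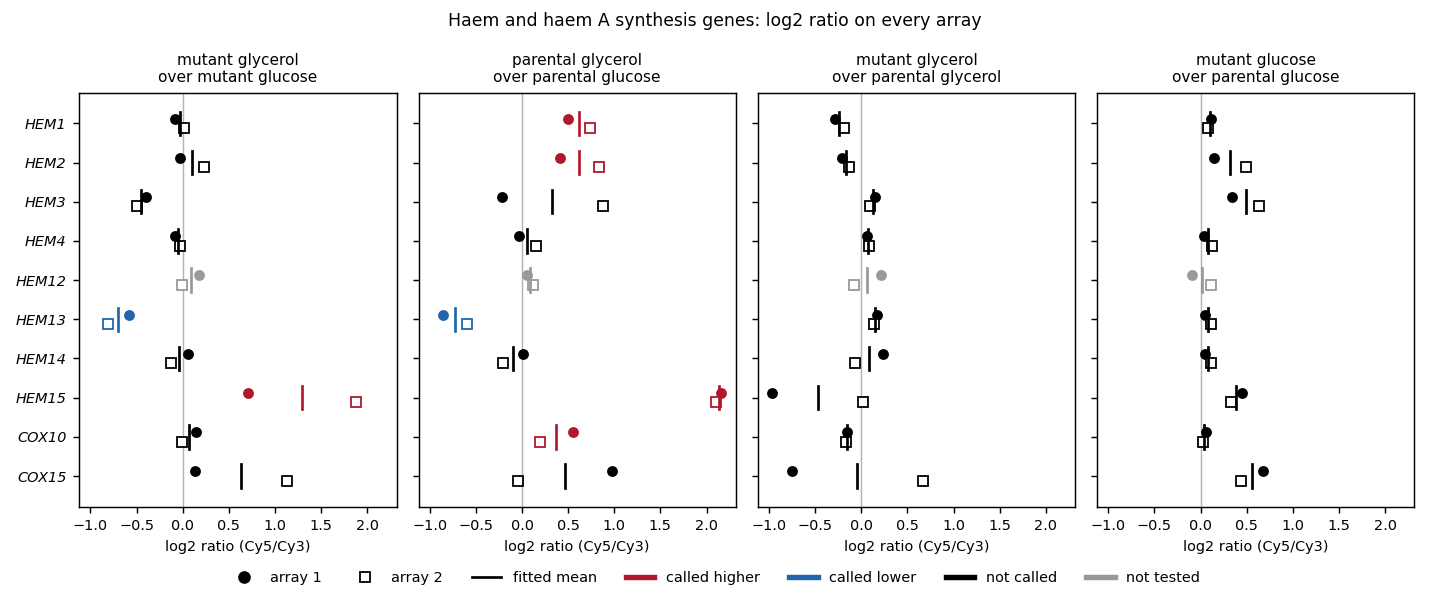
Log2 ratio (x axis) of each gene (y axis, in pathway order) on both arrays of the 4 comparisons; filled circles are array 1, open squares array 2, and vertical bars the fitted mean of the 2. HEM15 lies between 0.70 and 2.16 on the 4 glycerol over glucose arrays and HEM13 between -0.86 and -0.58, while HEM4 and HEM14 stay within 0.21 of zero on those arrays.

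HEM1 (YDR232W, chromosome IV) encodes 5-aminolevulinate synthase, which makes the committed precursor. Its glycerol response was -0.09 and 0.02 on the mutant arrays, against 0.50 and 0.74 on the parental arrays. The 2 strains' arrays did not overlap. How many of all genes showed such a separation of 2 arrays from 2 was not counted, here or for the genes below. HEM1 was called higher in glycerol in the parental strain (0.62 ± 0.10 SE, 1.54-fold, n = 2 arrays, limma adjusted p = 0.00111). In the mutant the mean was -0.03 ± 0.10 (adjusted p = 0.811), with a 95% interval of -0.27 to 0.20. The parental call was lost when arrays were centred on their median in place of loess (0.18, adjusted p = 0.341), and the sign turned when they were centred on spike-in RNA (-1.87).

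HEM2 (YGL040C, chromosome VII) encodes 5-aminolevulinate dehydratase, which joins 2 molecules of that precursor to porphobilinogen. Its glycerol response was -0.03 and 0.23 in the mutant, against 0.41 and 0.83 in the parental strain. As for HEM1, both parental arrays lay above both mutant arrays. HEM2 was called higher in the parental strain (0.62 ± 0.14 SE, 1.54-fold, adjusted p = 0.00523). Its mutant mean was 0.10 ± 0.14 (adjusted p = 0.601). The parental call rested on array 2, since without it the value was 0.41 (adjusted p = 0.0946), and it was also lost under median centring (0.27, adjusted p = 0.148). Under spike-in centring it was -1.79.

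HEM3 (YDL205C, chromosome IV), porphobilinogen deaminase, was not called in either response. It gave -0.40 and -0.50 in the mutant, against -0.22 and 0.87 in the parental strain. The mutant arrays were close to each other, while the parental arrays had opposite signs. The means were -0.45 ± 0.22 in the mutant (adjusted p = 0.127) and 0.33 ± 0.22 in the parental strain (adjusted p = 0.226). Much of this SE came from the 2 parental arrays: leaving out either of them brought the mutant value of -0.45 to an adjusted p of 0.0155. Without parental array 1, the parental value was 0.87 (adjusted p = 0.00569).

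HEM4 (YOR278W, chromosome XV), uroporphyrinogen III synthase, gave -0.08 and -0.02 in the mutant, against -0.03 and 0.15 in the parental strain. Its pooled SD between replicate arrays, 0.07, was the smallest among the 9 members and at percentile 5 of all tested genes. The mean response was -0.05 ± 0.10 in the mutant (95% interval -0.28 to 0.17) and 0.06 ± 0.10 in the parental strain (95% interval -0.17 to 0.29). HEM12 (YDR047W, chromosome IV), uroporphyrinogen decarboxylase, was well above background in 5 of 16 channels. Those were 3 of 4 mutant glycerol channels, 1 of 4 mutant glucose channels, 1 of 4 parental glycerol channels and 0 of 4 parental glucose channels. In a fit without the filter on dim probes its glycerol response was 0.09 in the mutant and 0.08 in the parental strain (adjusted p = 0.555 and 0.553). The normexp offset pulls such dim ratios towards zero, so these values do not bound a change.

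HEM13 (YDR044W, chromosome IV) encodes coproporphyrinogen III oxidase, which uses molecular oxygen and is known as a target of the Rox1 repressor. Its glycerol response was -0.58 and -0.81 in the mutant, against -0.86 and -0.59 in the parental strain. All 4 values were negative, and the ranges of the strains overlapped. HEM13 was called lower in the mutant (-0.70 ± 0.11 SE, 0.617 of the glucose level, adjusted p = 0.00147) and in the parental strain (-0.73 ± 0.11 SE, 0.605 of the glucose level, adjusted p = 0.000695). The mutant call was lost (-0.63, adjusted p = 0.207) when loess was followed by a spike-in correction that is described with the scalings. HEM14 (YER014W, chromosome V), protoporphyrinogen oxidase, gave 0.06 and -0.13 in the mutant, against 0.01 and -0.21 in the parental strain. Its means of -0.04 ± 0.12 and -0.10 ± 0.12 were not called (adjusted p = 0.816 and 0.480).

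HEM15 (YOR176W, chromosome XV), ferrochelatase, had the largest response of the 9 tested members. The mutant arrays gave 0.70 and 1.87, against 2.16 and 2.10 on the parental arrays. Both parental values lay above both mutant values, and mutant array 1 stood well below the other 3 arrays. The call in the mutant was 1.29 ± 0.28 SE (2.44-fold, adjusted p = 0.00684), and in the parental strain 2.13 ± 0.28 SE (4.38-fold, adjusted p = 0.000337). The mutant call rested on array 2: without it the value was 0.70 (adjusted p = 0.102). Its replicate SD of 0.54 was at percentile 97.7 of all tested genes, whose median was 0.18. The spots of HEM15 on an array differed by a median of 0.06, far less than the arrays did. Under spike-in centring HEM15 was at -0.094 in the mutant and -0.28 in the parental response, neither of them called.

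COX10 (YPL172C, chromosome XVI) encodes the farnesyltransferase that makes haem O. Its response was 0.15 and -0.01 in the mutant, against 0.55 and 0.19 in the parental strain. The arrays of the 2 strains did not overlap, but parental array 2 lay close to mutant array 1. COX10 was called higher in the parental strain (0.37 ± 0.11 SE, 1.29-fold, adjusted p = 0.0217), a call that rested on array 1 (0.19 without it, adjusted p = 0.271). The mutant mean was 0.07 ± 0.11 (adjusted p = 0.634). With Agilent's processed signals the parental value was 0.96 (adjusted p = 0.000723), and under median centring it was 0.62 (adjusted p = 0.00457). Under spike-in centring it was -1.43. COX10 was dim, but well above background in 15 of 16 channels. As for HEM12, the normexp offset pulls such dim ratios towards zero. How much of the gap to the value with Agilent's signals comes from this was not tested.

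COX15 (YER141W, chromosome V), haem A synthase, gave 0.14 and 1.13 in the mutant, against 0.97 and -0.04 in the parental strain. In each strain 1 array was near zero and the other near 1. The means of 0.63 ± 0.37 in the mutant and 0.46 ± 0.37 in the parental strain were not called (adjusted p = 0.191 and 0.296). Its replicate SD of 0.71 was at percentile 99.3 of all tested genes, although its spots on an array differed by a median of 0.09. The 95% interval of the response ran from -0.21 to 1.47 in the mutant, and in the parental strain it was as wide and also held zero.

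In the strain comparisons, 0 of 9 members were called in either medium. In glycerol, mutant over parental ratios were called in 4.12% of all tested genes, and 1 member had an unadjusted p under 0.05. That was HEM1, at -0.29 and -0.19 (-0.24 ± 0.10 SE, limma adjusted p = 0.243). HEM15 gave -0.97 and 0.02 in glycerol, and COX15 gave -0.75 and 0.67. For these 2 genes, array 1 had the mutant below the parental strain and array 2 did not. The means of the other 6 members lay between -0.17 and 0.15. The loop model, which fits the 4 conditions rather than the 4 pairs, also called 0 members, and a fit of the separate channels called 2 lower, HEM1 (-0.28, adjusted p = 0.0288) and HEM15 (-0.47, adjusted p = 0.0421). Of all 5343 tested genes these fits called 732 and 1287, against 220 in the main fit.

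In glucose, mutant over parental ratios were called in 7.04% of all tested genes, and 0 members had an unadjusted p under 0.05 in limma. All 9 tested members had a positive mean ratio after loess, but all 9 were negative and called lower under spike-in centring. There the median of all genes was -1.57 and the members lay 0.04 to 0.56 above it. Those distances are the same under median centring, because the spike-in offset cancels. Under the added setting of loess with a spike-in correction, HEM4, HEM13, HEM14 and COX10 were negative, COX10 the lowest at -0.046, and the median of all genes was -0.08. HEM3 was at 0.34 and 0.63 (0.49 ± 0.22 SE, adjusted p = 0.198), and HEM15 at 0.45 and 0.33 (0.39 ± 0.28 SE, adjusted p = 0.415). HEM2 was at 0.14 and 0.49 (0.32 ± 0.14 SE, adjusted p = 0.189). COX15 was at 0.68 and 0.44 (0.56 ± 0.37 SE, adjusted p = 0.360). After loess both arrays had the mutant above the parental strain for all 9 tested members. How many of all genes did so was not counted. The means of HEM1, HEM4, HEM13, HEM14 and COX10 lay between 0.04 and 0.10. The loop model called 0 members here, and the separate-channel fit called HEM3 (0.57, adjusted p = 0.00554). Over all 5343 tested genes they called 968 and 1317, against 376 in the main fit.

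The question of whether the strains responded differently to glycerol was tested as the mutant minus the parental response, in which a constant dye bias of a gene cancels. Among all tested genes 1.87% were called, and 0 of 9 members were, although 3 had an unadjusted p under 0.05. HEM1 had the smallest p of the members, with a difference of -0.65 ± 0.15 SE (95% interval -0.99 to -0.32, adjusted p = 0.0616). HEM2 was at -0.53 ± 0.20 SE (95% interval -0.98 to -0.07, adjusted p = 0.181) and HEM3 at -0.78 ± 0.31 SE (95% interval -1.49 to -0.06, adjusted p = 0.201). HEM1 and HEM2 were called in the parental strain alone, but the difference between the strains was not called for either. HEM15 had the largest difference after loess, -0.84 ± 0.40 SE, with an interval from -1.77 to 0.08 that holds zero (adjusted p = 0.268). COX10 was at -0.30 ± 0.16 SE (95% interval -0.67 to 0.07), but under median centring it had the largest difference, -0.69, against -0.36 for HEM15. With Agilent's processed signals the difference of COX10 was -0.73. HEM13 was at 0.03 ± 0.16 SE, and its interval of -0.33 to 0.39 leaves out differences of the size estimated for HEM1.

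The 4 arrays that compare the strains give the same quantity a second time, as the mutant over parental ratio in glycerol minus that in glucose. This estimate was -0.34 ± 0.15 SE for HEM1 (adjusted p = 0.268), -0.49 ± 0.20 SE for HEM2 and -0.36 ± 0.31 SE for HEM3. For HEM15 it was -0.86 ± 0.40 SE (adjusted p = 0.296), within 0.02 of the other estimate. Both sets of arrays compare the same conditions and may share RNA extracts, and whether the estimates are independent was not tested. Their closeness for HEM15 is therefore not separate evidence of a strain difference. Both estimates were negative for HEM1, HEM2, HEM3, HEM4, HEM15 and COX10, and they had opposite signs for COX15 (0.17 and -0.60). Under spike-in centring the mutant minus parental response was 0.37 for HEM1 and 0.19 for HEM15, where the median of all genes was 0.83. Relative to that median they were at -0.46 and -0.64, HEM3 at -0.56 and COX10, the lowest member, at -0.97. These relative values are the same under median centring, because the spike-in offset cancels. Fits that join both sets of arrays called more of these genes, and also many more of all 5343 tested genes. Over all genes the loop model called 1030 and the separate-channel fit 1223, against 100 in the main fit. The loop model called HEM1 (-0.50, adjusted p = 0.0143) and HEM2 (-0.51, adjusted p = 0.0268), and the separate-channel fit called HEM1, HEM2, HEM3 (-0.57) and HEM15 (-0.85). Their p-values would be too small if arrays shared RNA extracts, which was not tested.

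**Figure D2:**
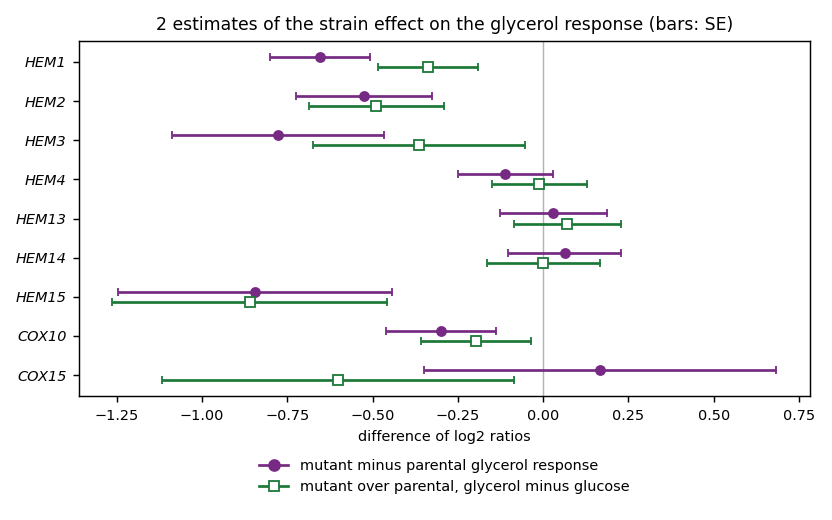
Both estimates (x axis, difference of log2 ratios) of how the strain alters the glycerol response of each of the 9 tested genes (y axis); filled circles are the mutant minus the parental response, open squares the strain ratio in glycerol minus that in glucose, and bars the SE. HEM15 lies at -0.84 and -0.86, HEM13 and HEM14 within 0.08 of zero, and the 2 estimates part most for COX15.

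Levels in single channels, normalized so that they can be set side by side for 1 gene, gave the order of the 4 conditions. Each condition had 4 channels, but mutant glycerol was always Cy5 and parental glucose always Cy3. HEM15 averaged 9.89 ± 0.37 in mutant glycerol, 8.75 ± 0.26 in mutant glucose, 10.36 ± 0.14 in parental glycerol and 8.37 ± 0.11 in parental glucose (log2 level, SD, n = 4 channels on 4 arrays). The ranges of the glycerol and glucose channels did not overlap in either strain, while the 2 strains overlapped on each carbon source. HEM13 averaged 8.01 ± 0.17 in mutant glycerol, 8.72 ± 0.10 in mutant glucose, 7.91 ± 0.19 in parental glycerol and 8.66 ± 0.02 in parental glucose. Its order was the reverse of that of HEM15 for carbon source, again with no overlap within a strain. HEM1 averaged 11.74 ± 0.16 in mutant glycerol, 11.78 ± 0.14 in mutant glucose, 12.01 ± 0.19 in parental glycerol and 11.55 ± 0.04 in parental glucose, so that both mutant conditions lay between the parental ones.

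Among the other members, HEM2 had the same order as HEM1, with 9.25 ± 0.16, 9.36 ± 0.19, 9.58 ± 0.30 and 9.18 ± 0.08 in mutant glycerol, mutant glucose, parental glycerol and parental glucose. HEM3 was highest in mutant glucose, at 9.44 ± 0.04, which did not overlap mutant glycerol (8.99 ± 0.07) or parental glucose (8.87 ± 0.20). It overlapped parental glycerol through 1 channel at 9.51, where the other 3 lay lower. For COX10 the parental glycerol channels (6.98 ± 0.08) lay above the parental glucose channels (6.67 ± 0.09). COX15 averaged 9.09 ± 0.31, 8.75 ± 0.34, 8.93 ± 0.55 and 8.37 ± 0.13 in those 4 conditions, and all neighbours overlapped. In HEM4 and HEM14 all neighbours in the order overlapped as well. Over the 10 genes, 4 of 30 neighbouring pairs of conditions had ranges that did not overlap. No such count was made over all genes, so whether 4 is few or many is not known. The pairs without overlap are listed for description only. These pairs were parental glycerol and mutant glucose for HEM12, where most channels were dim, mutant glycerol and parental glucose for HEM1, parental glucose and mutant glycerol for HEM13, and mutant glycerol and mutant glucose for HEM15.

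**Figure D3:**
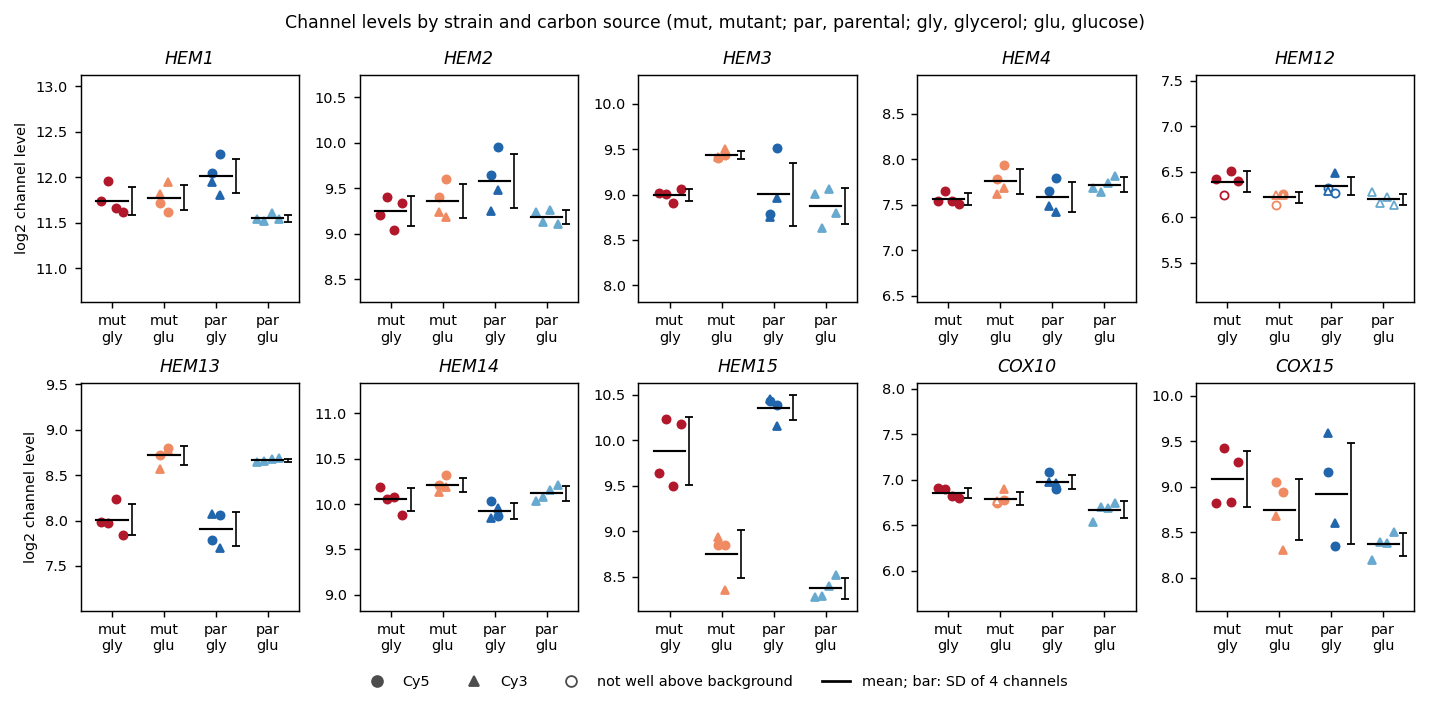
Log2 channel level (y axis, each panel spanning 2.5 units) of each gene in the 4 conditions (x axis); circles are Cy5 and triangles Cy3 channels, open symbols were not well above background, and the line and bar give the mean and SD of 4 channels. The HEM15 channels separate by carbon source in both strains, from 9.49 to 10.46 in glycerol and from 8.28 to 8.94 in glucose, and those of HEM13 separate the other way.

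The gap between replicate arrays of HEM15 and COX15 was large and positive in the 2 pairs that hold mutant glycerol RNA. Array 2 minus array 1 was 1.17 for HEM15 and 0.99 for COX15 in mutant glycerol over mutant glucose, and 0.98 and 1.42 in mutant glycerol over parental glycerol. In the parental response the same gap was -0.06 for HEM15 and -1.01 for COX15, and in mutant glucose over parental glucose it was -0.12 and -0.23. Over all tested genes, the array 2 minus array 1 gaps of the 2 pairs with mutant glycerol RNA correlated at 0.763, and those of the other pairs of comparisons between -0.449 and 0.137. Whether these gaps follow the RNA extract or the position on the slide was not tested.

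Over the 8 arrays, which share conditions and may share RNA extracts, the ratios of HEM15 and HEM13 ran in opposite directions (Pearson r = -0.885), and those of HEM1 and HEM2 ran together (0.910). HEM3 and HEM4 correlated at 0.928, though the ratios of HEM4 were small. The 3 genes most like HEM15 were HSP42, a small heat shock protein (r = 0.998), GAD1, glutamate decarboxylase (0.997), and LEU5, a mitochondrial carrier needed for coenzyme A in the matrix (0.996). HSP42 gave 0.97 in the mutant and 1.57 in the parental response, GAD1 1.81 and 2.82, and LEU5 0.55 and 1.06. Those most like HEM13 were the ribosomal protein genes RPS31 (0.996), RPL20B (0.996) and RPS24A (0.995), with responses of -1.12, -1.29 and -1.07 in the mutant and -1.08, -1.43 and -1.08 in the parental strain. Whether their probes share signal with paralogs was not analysed here. For COX15, whose pattern was mostly its spread between arrays, they were ERV29 (0.962), SSP120 (0.949) and SNT309 (0.942). All these genes were picked for the highest r among the tested genes, so a high r is built in. The median r over all tested genes was -0.05 for HEM15 and -0.01 for HEM13 and COX15.

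Other genes of haem biology were taken from 7 lists. Their counts stand against the shares of all tested genes called. In the mutant response those were 24.7% higher and 21.9% lower, and in the parental response 31.4% higher and 30.5% lower. Values under spike-in centring stand against the medians of all genes there. Those were -1.48 in the mutant and -2.19 in the parental response, and 0.83 in the difference of responses. Between the strains they were -0.82 in glycerol and -1.57 in glucose. Among 9 regulators of haem-responsive genes, which include TUP1 and CYC8, 4 were called higher and 0 lower in the mutant response, and 5 higher and 1 lower in the parental response. Their median was 0.41 and 0.51 after loess, but -1.07 and -1.89 under spike-in centring. HAP4, the activating subunit of the complex that drives respiratory genes, gave 1.63 ± 0.16 in the mutant (adjusted p = 0.000152) and 2.77 ± 0.16 in the parental strain (adjusted p = 5.63e-06). ROX1, the haem-induced repressor of hypoxic genes, gave 1.08 ± 0.15 and 1.52 ± 0.15 (adjusted p = 0.000685 and 5.94e-05). HAP4 was also the only gene of the 7 lists called between the strains in glucose, at 1.17 and 0.65 (0.91 ± 0.16 SE, adjusted p = 0.0207). Under spike-in centring it was at -0.67, where the median of all genes was -1.57. The glucose call of HAP4 was lost without either glucose strain array (adjusted p up to 0.188). Its difference of responses of -1.15 ± 0.23 was not called (adjusted p = 0.0534).

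Of 13 haem-containing proteins, 7 were called higher and 2 lower in the mutant response, and 8 higher and 3 lower in the parental response. The largest were the catalases, which stayed positive under each of the 4 scalings compared. CTA1, the peroxisomal one, gave 3.36 ± 0.12 in the mutant and 4.10 ± 0.12 in the parental strain, and CTT1, the cytosolic one, gave 3.46 ± 0.16 and 3.56 ± 0.16 (adjusted p between 1.56e-07 and 2.57e-06). The list median was 0.77 in the mutant and 0.84 in the parental response after loess, and -0.61 and -1.57 under spike-in centring. The 9 synthesis genes had -0.03 and 0.37 after loess, and no test of that gap was made.

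Cytochrome c oxidase assembly factors beside the haem A enzymes were called higher in 4 of 7 cases in the mutant response and 6 of 7 in the parental response, with 0 lower in both. The list median of 0.32 in the mutant and 1.03 in the parental strain became -1.08 and -1.38 under spike-in centring. PET100, an assembly factor, gave 0.74 ± 0.17 in the mutant and 1.97 ± 0.17 in the parental strain (adjusted p = 0.00910 and 3.82e-05). COX17, a copper chaperone, gave 0.13 and 0.44 on the mutant arrays, against 1.34 and 1.79 on the parental arrays. Its difference of responses was called (-1.28 ± 0.20 SE, adjusted p = 0.0301). Under spike-in centring that difference was -0.24, where the median of all genes was 0.83. The call was lost in 5 of 8 runs that each left out 1 array: either parental response array, array 1 of the mutant response, or either glucose strain array (adjusted p up to 0.176). COX14, another assembly factor, gave 0.83 ± 0.15 and 1.29 ± 0.15 (adjusted p = 0.00277 and 0.000169).

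Among 5 tested genes of haem attachment and of the partners of Cox15, 1 was called higher and 1 lower in the mutant response, and 3 higher and 1 lower in the parental response. The list median was 0.04 and 0.50, and -1.38 and -1.92 under spike-in centring. PET117 of this list was too dim to be tested. CYC3, which attaches haem to cytochrome c, gave 0.67 ± 0.16 and 1.44 ± 0.16 (adjusted p = 0.00956 and 0.000124). YAH1, the mitochondrial ferredoxin that works with Cox15, was lower in both responses, at -1.11 ± 0.18 and -1.02 ± 0.18 (adjusted p = 0.00147 and 0.00136). CYT2, which attaches haem to cytochrome c1, gave -0.37 and -0.11 on the mutant arrays, against 0.58 and 0.82 on the parental arrays. Its difference of responses was called (-0.94 ± 0.17 SE, adjusted p = 0.0412). Under spike-in centring that difference was 0.10, where the median of all genes was 0.83. This call was lost in the same 5 of 8 runs as that of COX17 (adjusted p up to 0.252).

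Of 4 genes for other fates of tetrapyrroles, 1 was called higher and 2 lower in both responses. HMX1, haem oxygenase, gave 1.65 ± 0.11 in the mutant and 2.42 ± 0.11 in the parental strain. PUG1, a plasma membrane transporter of protoporphyrin and haem, gave -1.12 ± 0.21 and -1.68 ± 0.21 (adjusted p = 0.00311 and 0.000242). MET1, which diverts uroporphyrinogen III to sirohaem, gave -1.18 ± 0.16 and -2.39 ± 0.16. It was also higher in the mutant than in the parental strain in glycerol, with both arrays near the mean (1.45 ± 0.16 SE, adjusted p = 0.00357), and its difference of responses was called (1.21 ± 0.23 SE, adjusted p = 0.0459, and 2.21 under spike-in centring). The call of the difference was lost in 7 of 8 runs without 1 array, all but the run without array 2 of the mutant response (adjusted p up to 0.247). MET8, the next enzyme of sirohaem synthesis, was called in glycerol between the strains (0.97 ± 0.17 SE, adjusted p = 0.0176, and 0.16 under spike-in centring) and in neither response. Without array 1 of the glycerol strain comparison, the glycerol calls of MET1 (adjusted p = 0.0738) and MET8 (adjusted p = 0.260) were lost.

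Of 5 genes of mitochondrial substrate supply, 2 were called higher and 2 lower in both responses, with a median that was negative after loess and 0.06 in the parental strain under median centring. The mitochondrial iron importers MRS3 and MRS4 moved in opposite directions after loess, with MRS3 at -0.45 ± 0.12 and -0.71 ± 0.12 and MRS4 at 0.61 ± 0.10 and 0.61 ± 0.10 in the mutant and parental strain, though MRS4 was at -0.82 and -1.79 under spike-in centring. YFH1, frataxin, gave 0.45 ± 0.13 and 0.85 ± 0.13, and MTM1, a mitochondrial carrier, gave -0.56 ± 0.14 and -0.91 ± 0.14. HEM25, the glycine carrier that feeds Hem1, was not called (-0.10 ± 0.10 and -0.13 ± 0.10). Of 5 further genes that Rox1 represses, as it does HEM13, 2 were called higher and 1 lower in the mutant response, and 2 higher and 0 lower in the parental response. CYC7, the second cytochrome c gene, gave 1.61 ± 0.41 and 3.42 ± 0.41, HMG2, an HMG-CoA reductase, 0.44 ± 0.10 and 0.54 ± 0.10, and ANB1 -1.32 ± 0.22 and -0.37 ± 0.22, of which the parental value was not called. AAC3 and COX5B were called in neither response. Without array 2 of the mutant response, the mutant calls of PET100, CYC3, MRS3, MTM1, CYC7 and HMG2 were lost (adjusted p between 0.116 and 0.237), and the mutant call of YFH1 was lost without either array.

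**Figure D4:**
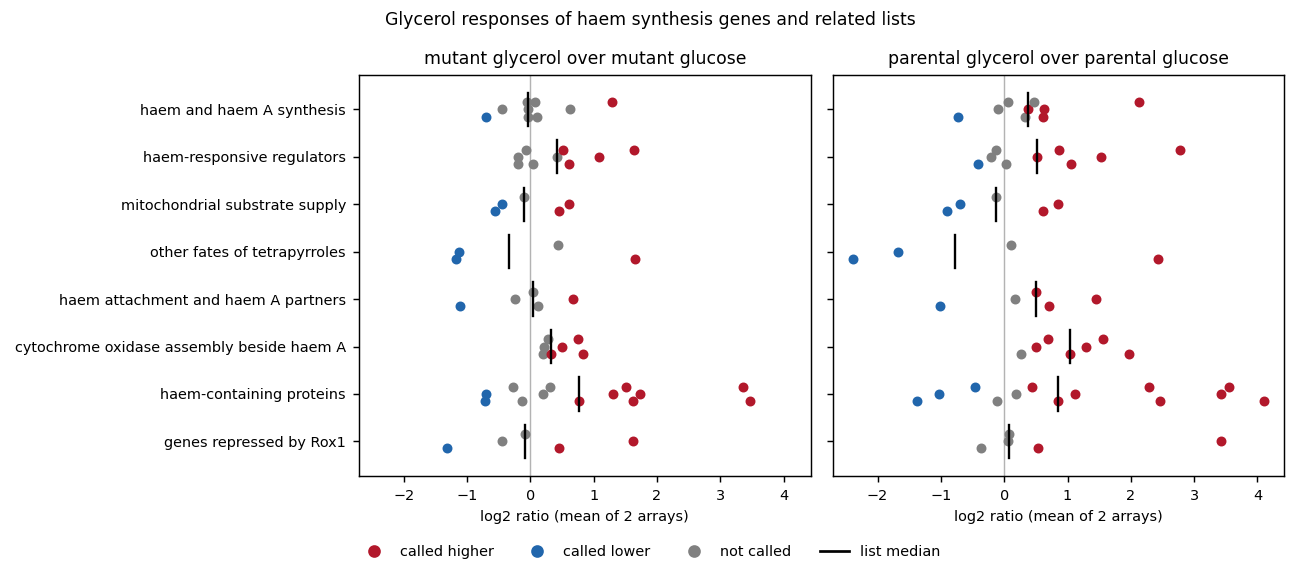
Log2 glycerol responses (x axis, mean of 2 arrays) in the mutant and the parental strain for the 9 tested haem synthesis genes and 7 lists of related genes (y axis); each point is a gene, coloured by its call, and vertical bars are list medians. The synthesis genes have a median of -0.03 in the mutant and 0.37 in the parental strain, and haem-containing proteins 0.77 and 0.84, after loess. Under spike-in centring haem-containing proteins were at -0.61 and -1.57, where the medians of all genes were -1.48 and -2.19.

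Directions depended on what was held constant. The spike-in probes lay above the average gene on all 8 arrays, by 0.79 to 2.64 on the log2 scale. With no dye swap, an offset shared by the arrays, from dye or spike-in mix, cannot be told apart from a change in RNA. A sign turned by spike-in centring in place of loess is therefore not shown to be a reversal of the RNA. Relative to the median of all genes under spike-in centring, HEM15 was at 1.39 in the mutant and 1.91 in the parental response, and HEM13 at -0.68 and -0.89. HEM1 was at -0.02 and 0.32, and HEM2 at 0.20 and 0.40. Median centring gives these same relative values, because the spike-in offset of an array cancels. They are therefore no separate check by spike-in RNA. A setting chosen after seeing the data kept loess and removed the mean spike-in offset of the 8 arrays from each array's offset. There HEM15 remained called higher in the mutant (1.35) and in the parental strain (1.46). It was the only tested member with a positive parental value. HEM1 (-0.055), HEM2 (-0.053) and COX10 (-0.30), called higher in the parental strain after loess, were negative there and not called. In the parental response of that setting the list medians were negative for the regulators (-0.16), the attachment list (-0.17) and the genes repressed by Rox1 (-0.60). Mitochondrial substrate supply (-0.81) and other fates of tetrapyrroles (-1.46), negative after loess too, were lower still. Haem-containing proteins (0.17) and oxidase assembly factors (0.36) stayed positive. The median of all genes was -0.69.

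**Figure D5:**
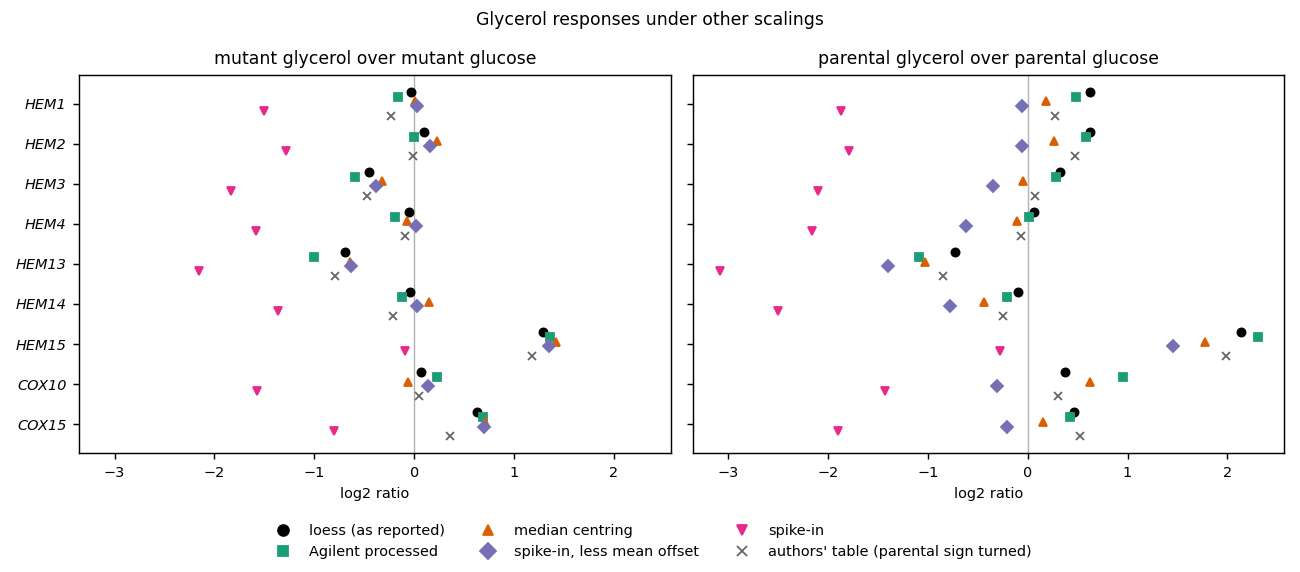
Log2 glycerol responses (x axis) of the 9 tested genes (y axis) in the mutant and the parental strain under 6 sources or scalings, marked by symbol. Spike-in centring shifts all genes to lower values, by about the -1.48 and -2.19 of the median gene. HEM15 is highest and HEM13 lowest in every setting shown. Spike-in centring subtracts the same value from every gene of an array, so it cannot change the order found under median centring. For the same reason, the spike-in correction after loess cannot change the order found after loess.

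The authors' deposited table gave 1 combined value per gene and comparison. Its column for the parental response ran opposite to the scanner ratios (r = -0.951 across genes) and its sign is turned here; the log base, taken as log2, is not stated. In the authors' deposited table HEM15 was at 1.18 in the mutant and 1.99 in the parental response, and HEM13 at -0.79 and -0.85. HEM1 was at -0.24 and 0.27 in the authors' deposited table, and its mutant over parental value in glycerol was -0.41.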

How the data were processed

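Per the file headers, Agilent Feature Extraction 10.10.1.1 wrote the 8 scanner files, which hold median foreground and background intensity values per channel beside processed ones. A log10 ratio (Cy5 over Cy3) and 0 or 1 flags for background, outlier and saturated spots are other deposited columns, per the file headers. The authors deposited a table of combined ratios, taken as log2, for which the submitters' processing notes name limma without a version. Mean signals were not used.

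In R 4.3.3 with limma 3.58.1, median signals were corrected by normexp (offset 50) and normalized by loess within arrays, with control and outlier spots at weight 0, and the 2 spots of a gene were averaged. Genes well above background in all 4 channels of at least 1 condition were tested: 5343 of 6256, of which 4718 passed on all 16 channels. Each comparison was a coefficient of 1 fit over 8 arrays, with 4 residual degrees of freedom. Levels were also scaled between arrays (Aquantile). Gene names and chromosomes came from RefSeq, which named 5756 genes and left 500 unnamed. 0 gene spots were saturated. With 2 arrays for each comparison, precision is limited by their number.

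The members and lists were chosen with earlier results of these data known. All 10 members were named in each comparison. From each list the 2 genes with the largest called ratios in a comparison could be named, and lists of 5 or fewer genes in full. The lists were regulators of haem-responsive genes (drawn as haem-responsive regulators), mitochondrial substrate supply, other fates of tetrapyrroles, haem attachment and haem A partners, cytochrome oxidase assembly beside haem A (COA2 had no match), haem-containing proteins, and genes repressed by Rox1. For the 3 members with the largest ratios, the 3 genes with the highest Pearson r over the arrays were named. The fit was tested on simulated data. Replicate numbers are not in the labels; slide rows were tried as a block. Alternatives covered background correction, offset, normalization, the filter on dim probes, other fits, single arrays left out and the authors' table.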

Additional observations from a re-analysis of the deposited data

Results flagged for a closer look

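The levels of the 10 genes in the 4 conditions formed 40 groups of 4 channels, and in 2 of them 1 channel stood far from the other 3. Chance flags about 1 in 20 such groups. HEM15 in mutant glucose had a log2 level of 8.36 in the Cy3 channel of array 2 of mutant glycerol over mutant glucose, against 8.85 to 8.94 in the other 3 channels. It is on the array on which the mutant response of HEM15 rests. HEM12 in mutant glucose had a log2 level of 6.13 in the Cy5 channel of array 1 of mutant glucose over parental glucose, against 6.24 to 6.25 in the others. Of the 4 HEM12 channels in mutant glucose, 1 was well above background.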

How the results depend on the processing

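Of 895 member values recomputed, 834 kept their direction and side of the threshold, 6 lost a call, 29 gained one and 26 turned their sign with a call on either side. Another 65 uncalled values changed sign. Centring on spike-in probes in place of loess gave 8 calls among the members in the mutant response, 8 in the parental response, 8 between strains in glycerol, 9 between strains in glucose and 2 in the difference of responses, against 2, 5, 0, 0 and 0 as reported. It turned the mutant responses of HEM2 (-1.29), HEM15 (-0.094), COX10 (-1.57) and COX15 (-0.80). It turned the parental responses of HEM1 (-1.87), HEM2 (-1.79), HEM3 (-2.10), HEM4 (-2.16), HEM15 (-0.28), COX10 (-1.43) and COX15 (-1.90). In glycerol it turned the strain ratios of HEM4 (-0.78), HEM13 (-0.66) and HEM14 (-0.68). In glucose it turned those of HEM1 (-1.53), HEM2 (-1.27), HEM3 (-1.09), HEM4 (-1.48), HEM13 (-1.49), HEM14 (-1.54), HEM15 (-1.18), COX10 (-1.52) and COX15 (-1.01). Loess with the spike-in offset less its mean, chosen after seeing the data, gave 1 member in the mutant response, 3 in the parental response and 2 between strains in glycerol, and turned the parental HEM1 (-0.055), HEM2 (-0.053) and COX10 (-0.30). Median centring gave 3 in the parental response. The separate-channel fit gave 2 between strains in glycerol, 1 in glucose and 4 in the difference, where the loop model gave 2. Leaving out single arrays gave 1 to 3 members in the mutant response, 4 to 5 in the parental response and 0 in the other 3 comparisons. With slide row as a replicate block the members' counts were 2, 5, 0, 0 and 0, and 43 of all genes were called in the difference of responses, against 100 without the block. The rows carry no replicate number in the labels, and their deviations correlated between -0.449 and 0.763.

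Counts over all genes moved by more than 1.5 times as follows. The mutant response, 2491 as reported, had 4853 under spike-in centring, 937 under the added setting and 1453 without its array 2. The parental response, 3310, had 5141 under spike-in centring. The strains in glycerol, 220, had 120 under median centring, 3951 under spike-in centring, 1770 under the added setting, 732 in the loop model, 1287 in the separate-channel fit and 18 to 141 in the 4 runs without an array that moved it. The strains in glucose, 376, had 111, 5309, 43, 968 and 1317 in those settings and 5 to 12 without an array of their own. The difference of responses, 100, had 258, 1662, 169, 1030 and 1223, 20 with Agilent's processed signals, 164 without background subtraction and 0 to 223 without an array. The causes were not tested. HEM12 is limited by signal over background.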
